A study of Mus musculus with 16 samples.

Results

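Neuronal intermediate filament genes were measured in the lumbar spinal cord of SOD1G93A and wild-type mice at 2 ages. The genes were *Nefl*, *Nefm*, *Nefh*, *Ina* and *Prph*, found among the non-control spots by the gene name that the array files give, where *Nefm* is written Nef3 and *Prph* is written Prph1. These 5 genes are among 27670 gene names on the array, and they have 8 of its 41174 probes and 17 of its 43379 non-control spots.

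Neurofilaments are the intermediate filaments of neurons, and they fill large myelinated axons and set their calibre. The light subunit forms the filament core together with the medium and heavy subunits, whose long phosphorylated tails project from the filament as side arms, and alpha-internexin joins them in neurons of the central nervous system. Peripherin is found mainly in neurons that send axons into the periphery, such as spinal motor neurons. Neurofilament accumulations in the cell bodies and swollen proximal axons of motor neurons are a known feature of amyotrophic lateral sclerosis and of mice that carry mutant SOD1, and the light chain released from injured axons is measured in patients as a marker of axonal damage.

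The SOD1G93A mice carry a mutant human SOD1 transgene, for which the line is named, and the wild-type mice were non-transgenic controls of the same age. All were males of the mixed B6SJL background, aged 40 or 80 days, ages that precede symptoms in this line. There were 4 arrays per group, each labelled as a biological replicate, and the study used 5 animals per group before arrays of low quality were set aside. Each of the 16 arrays carried the whole lumbar cord of a mouse in the Cy3 channel and the same kind of reference RNA in the Cy5 channel, a pool of neonatal heart, kidney and liver from non-transgenic and SOD1G93A animals. Values are normalised log2 ratios of cord over reference unless a channel is named. Loess centred these ratios within each array, so they are read relative to other probes of like brightness and are not ratios of the raw signals. Levels were not compared between probes, because each probe hybridises with its own efficiency.

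The 16 arrays lay on 4 slides, each with 1 array of every group, and a group always lay at the same position on its slide. The effect of that position and of the group cannot be told apart. Between 46.1% and 55.3% of the probes were well above background in Cy3. On 3 arrays some spots had a local background clearly brighter than the spot itself, and such backgrounds were reset to the median of their array. In Cy3 there were 4 on wild-type replicate 3 and 5 on SOD1G93A replicate 4 at 40 days, and 63 on SOD1G93A replicate 4 at 80 days. In Cy5 the same arrays had 3, 4 and 18 in turn. Because whole cord was used, fewer cells of a type and less RNA per cell cannot be told apart in any of these values.

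The probes are 60-base oligonucleotides, and the files place them on the mm7 mouse build. *Nefl* has probes A_51_P339934 at chr14:62946259-62946319 and A_51_P168646 at chr14:62947487-62947546, both on the plus strand and 1168 bases apart. *Nefm* has probe A_51_P145220 at chr14:62978814-62978873 on the minus strand, 31268 bases from the nearer *Nefl* probe. *Nefh* has probes A_51_P300657 at chr11:4890918-4890977 and A_52_P188851 at chr11:4891629-4891688, both on the minus strand and 652 bases apart. *Ina* has probe A_52_P366860 at chr19:46925057-46925116 and *Prph* has probe A_51_P344606 at chr15:99042273-99042332, both on the plus strand. No annotation of that build was used here, so the exon or untranslated region that each probe lies in is not given.

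Of these probes, 3 are shown because results turn on them: the *Nefm* probe, which is spotted 10 times on every array, the *Nefh* probe that passed the test in some comparisons while its partner did not, and the *Prph* probe, which the files list under its older symbol. Capitals mark the longest run of bases shared with another of the 8 probes, and the longest such run between any pair of them was 8 bases.
Nefm A_51_P145220: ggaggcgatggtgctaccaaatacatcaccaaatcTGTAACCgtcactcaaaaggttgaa
Nefh A_52_P188851: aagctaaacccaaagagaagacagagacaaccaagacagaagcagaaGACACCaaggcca
Prph A_51_P344606: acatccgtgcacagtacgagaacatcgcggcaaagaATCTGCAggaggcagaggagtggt
The GC content was 46.7% in the *Nefh* sequence, 45.0% in the *Nefm* sequence and 55.0% in the *Prph* sequence. The longest run of the *Nefh* sequence shared with any other probe of the array was 15 bases, with the *Xpa* probe A_52_P83233.

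In every array, 7 of the 8 probes were well above background in both channels, and none of the 17 spots was saturated. The exception was the *Nefm* probe A_52_P596178 at chr14:62941787-62941846, which the files list under Nef3 although it lies 36968 bases from the other *Nefm* probe and only 4413 bases from a *Nefl* probe. It was well above background in Cy3 on 1 of 16 arrays, with raw Cy3 signals of 40.5 to 84 units over local backgrounds of 34 to 57.5 units. It was not tested, and the results below rest on the other 7 probes.

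The light subunit was read by its brightest probe, A_51_P339934. At 40 days its log2 ratios were 8.11, 8.34, 7.91 and 8.17 in wild-type cord and 8.19, 8.33, 8.27 and 8.35 in SOD1G93A cord. At 80 days they were 8.07, 8.18, 7.88 and 8.47 in wild-type cord and 8.23, 8.31, 7.92 and 8.08 in SOD1G93A cord. The groups overlapped at both ages, and wild-type replicate 3 was the lowest of its group at each age. The raw signals of this probe ran from 1190.5 to 2008 units in Cy5 and from 20436 to 36557 units in Cy3 over the 16 arrays. The second *Nefl* probe, A_51_P168646, had group means of 7.33 ± 0.14, 7.43 ± 0.070, 7.27 ± 0.17 and 7.35 ± 0.080 (SD, n = 4) for wild-type and SOD1G93A cord at 40 days and then at 80 days.

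The medium subunit, *Nefm*, had log2 ratios of 5.34, 5.50, 5.10 and 5.43 in wild-type cord and 5.32, 5.57, 5.35 and 5.57 in SOD1G93A cord at 40 days. At 80 days the ratios were 5.24, 5.47, 5.26 and 5.58 in wild-type cord and 5.40, 5.49, 5.24 and 5.21 in SOD1G93A cord. All 4 groups overlapped, with means between 5.34 and 5.45. The 10 spots of this probe show the spotting error, and their SD within an array was 0.036 to 0.086, with a median of 0.050, against an SD of 0.14 between the 16 arrays. The spread between spots does not cover labelling, hybridisation or differences between animals.

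The heavy subunit, *Nefh*, was read by 2 probes. The brightest, A_51_P300657, had log2 ratios of 4.98, 5.04, 4.78 and 4.95 in wild-type cord and 4.96, 5.03, 4.96 and 5.08 in SOD1G93A cord at 40 days, and 4.82, 4.92, 4.92 and 5.16 in wild-type cord and 5.05, 4.99, 4.89 and 4.94 in SOD1G93A cord at 80 days. Its groups overlapped at both ages, and its SD over the 16 arrays, 0.095, was the smallest of the 7 probes. The other probe, A_52_P188851, read 4.25, 4.28, 4.04 and 4.16 in wild-type cord and 4.33, 4.28, 4.37 and 4.36 in SOD1G93A cord at 40 days. At 80 days it read 4.18, 4.20, 4.17 and 4.39 in wild-type cord and 4.25, 4.15, 3.95 and 4.00 in SOD1G93A cord. On this probe the SOD1G93A arrays began at the top of the wild-type range at 40 days, and at 80 days SOD1G93A replicates 2, 3 and 4 lay below the lowest wild-type array.

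Alpha-internexin, encoded by *Ina*, varied most. Its log2 ratios were 5.34, 4.94, 4.94 and 5.32 in wild-type cord and 4.79, 5.48, 5.31 and 5.11 in SOD1G93A cord at 40 days, and 5.33, 5.31, 4.76 and 5.37 in wild-type cord and 4.65, 5.18, 5.11 and 5.27 in SOD1G93A cord at 80 days. The SD over the 16 arrays was 0.25. Both SOD1G93A arrays on slide 1, replicate 1 of each age, were low, and there the raw reference signal in Cy5 was 269 and 234 units against 104.5 to 162.5 units on the other 14 arrays.

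Peripherin, encoded by *Prph*, had log2 ratios of 2.29, 2.52, 2.23 and 2.52 in wild-type cord and 2.17, 2.24, 2.22 and 2.47 in SOD1G93A cord at 40 days. At 80 days they were 2.47, 2.40, 2.26 and 2.27 in wild-type cord and 2.51, 2.37, 2.23 and 2.20 in SOD1G93A cord. The groups overlapped at both ages. The raw cord signal was below the raw reference signal in every group, with means of 535, 441, 502 and 527 units in Cy3 against 878, 806, 915 and 923 units in Cy5 for wild-type and SOD1G93A cord at 40 days and then at 80 days, so the sign of the *Prph* ratio is set by the normalisation. With each probe's 4 groups put in order of their means, neighbours were within 1 pooled SD of each other, except that SOD1G93A cord at 40 days, the highest group, exceeded the next one by 0.10 (pooled SD 0.080) on *Nefh* A_52_P188851 and by 0.077 (pooled SD 0.075) on *Nefl* A_51_P168646.

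**Figure D1:**
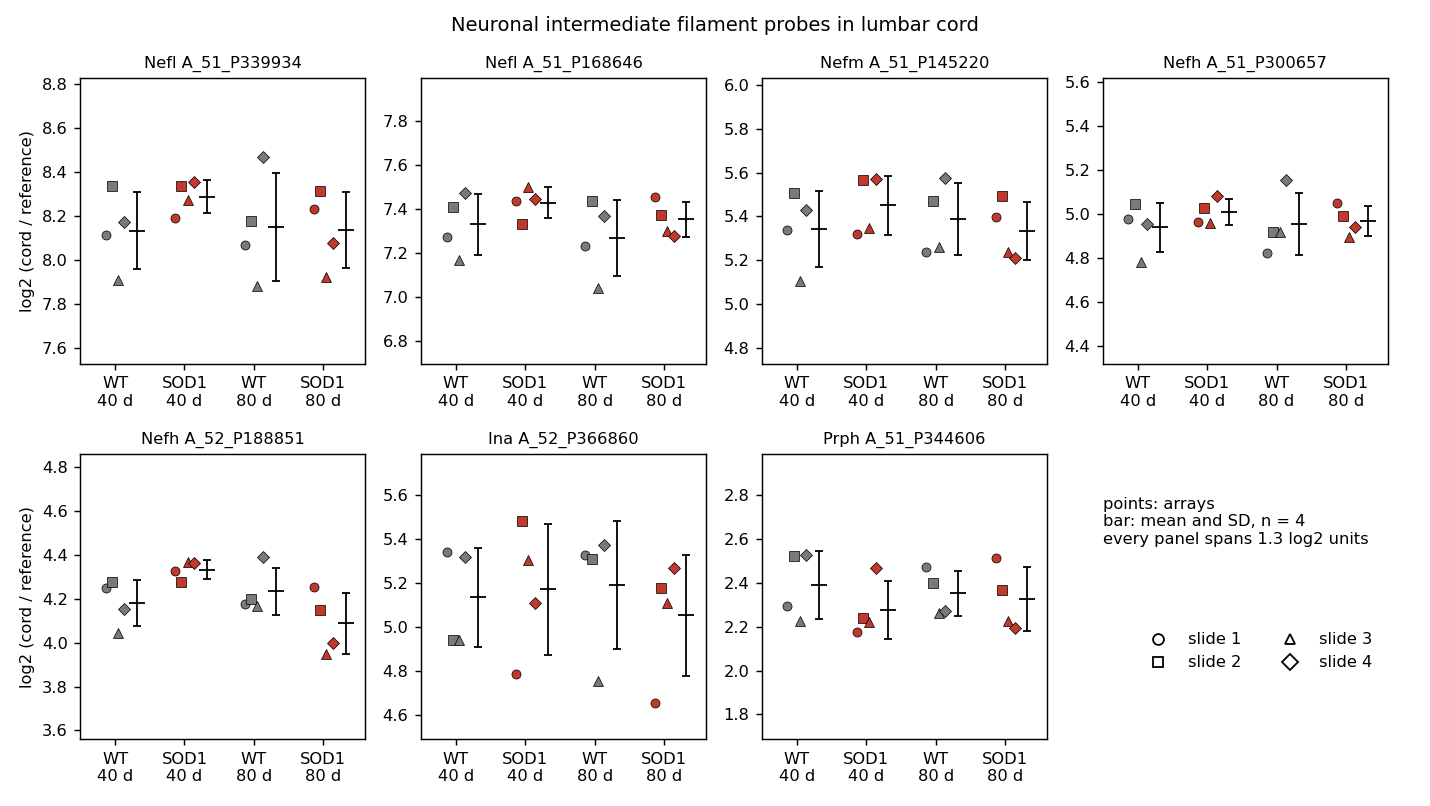
Log2 ratio of cord over reference for the 7 probes above background, 1 panel per probe, with a point for each of the 4 arrays of a group and the group mean with its SD. The arrays of the 4 groups overlap in every panel at a given age, and *Ina* shows the widest spread, with an SD of 0.25 over the 16 arrays.

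The first comparison asked whether these genes differed between SOD1G93A and wild-type cord at 40 days. By the brightest probe, 0 of the 5 genes passed the test at an unadjusted p under 0.05, and 1 of the 7 probes did, where 4.51% of all probes tested passed. No member probe had groups that did not overlap, against 2.83% of all probes, and after Benjamini-Hochberg adjustment limma called 0 of 21338 probes, of which 963 passed unadjusted. Of the 7 probes, 6 had a higher mean and 1 had a lower mean in SOD1G93A cord. By the brightest probe, the median difference of the 5 genes was 0.070 on the log2 scale.

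The probe that passed was *Nefh* A_52_P188851, with group means of 4.18 ± 0.11 in wild-type and 4.33 ± 0.042 in SOD1G93A cord (SD, n = 4). The difference was 0.15 on the log2 scale (95% confidence interval 0.01 to 0.29, limma p = 0.0363, adjusted p = 0.997, exact two-sided permutation p = 0.0571, where 4 against 4 arrays can give no less than 0.0286). Within slides 1 to 4 it was 0.078, 0.00, 0.32 and 0.21. The call was lost with slide as a block (limma adjusted p = 0.979). It was also lost when wild-type replicate 3 or 4, or SOD1G93A replicate 1, 3 or 4, was left out, over a range of 0.11 to 0.18 for all 8 arrays left out in turn. The brightest *Nefh* probe differed by 0.070 (interval −0.08 to 0.22, exact permutation p = 0.400), so the call rests on 1 of 2 probes for this gene.

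*Nefl* A_51_P339934 differed by 0.15 (interval −0.04 to 0.35, limma p = 0.105, exact permutation p = 0.143) and passed only without wild-type replicate 2, at 0.22. Its second probe, A_51_P168646, differed by 0.10 (exact permutation p = 0.257). *Nefm* differed by 0.11 (interval −0.11 to 0.32, exact permutation p = 0.429) and *Ina* by 0.036 (interval −0.30 to 0.37, p = 0.886 by the same test). *Prph* was the member with a lower mean in SOD1G93A cord, by −0.11 (interval −0.32 to 0.09, exact permutation p = 0.200). It was lower on 4 of 4 slides, by −0.12, −0.28, −0.0021 and −0.055 on slides 1 to 4. Without the 3 arrays with bright backgrounds, a setting chosen after seeing the data, *Prph* differed by −0.23 and passed at an unadjusted p under 0.05.

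The same question at 80 days gave no call. By the brightest probe 0 of 5 genes and over all probes 0 of 7 passed at an unadjusted p under 0.05, where 6.86% of all probes tested passed, and none had groups that did not overlap, against 4.3% of all probes. Limma called 0 of 21603 probes after adjustment and 1482 before it. The means of 2 probes were higher and of 5 lower in SOD1G93A cord. By the brightest probe, the median difference of the 5 genes was −0.027.

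At 80 days *Nefl* A_51_P339934 differed by −0.014 (interval −0.29 to 0.26), *Nefm* by −0.052 (interval −0.26 to 0.16) and *Nefh* A_51_P300657 by 0.015 (interval −0.16 to 0.19), with exact permutation p = 0.971, 0.629 and 0.914 in turn. By these brightest probes, the means of each of the 3 subunits differed by less than 1 SD of either group. *Prph* differed by −0.027 (interval −0.22 to 0.16, exact permutation p = 0.771) and *Ina* by −0.14 (interval −0.50 to 0.22, p = 0.457 by the same test), and the second *Nefl* probe, A_51_P168646, differed by 0.083. *Nefh* A_52_P188851 differed by −0.15 (interval −0.33 to 0.04, limma p = 0.114, exact permutation p = 0.200), and it passed only without SOD1G93A replicate 1, at −0.20.

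**Figure D2:**
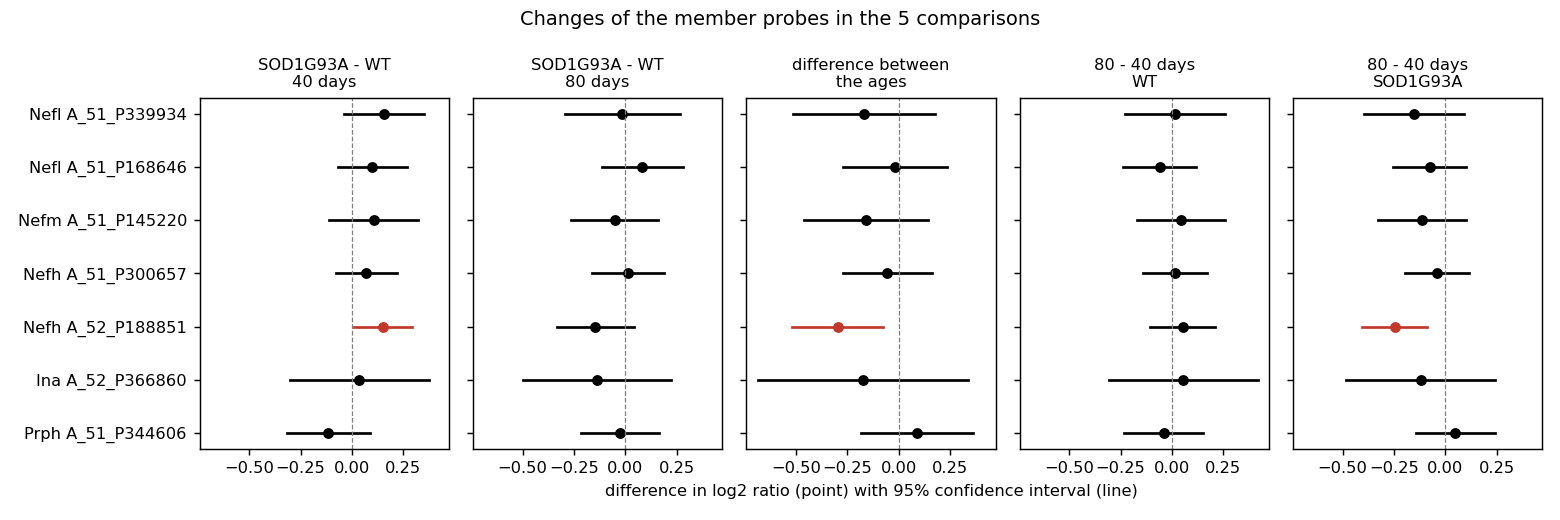
Differences between groups on the log2 scale with 95% confidence intervals from limma, for the 7 probes in each of the 5 comparisons; the line at 0 marks no difference. Intervals of *Nefh* A_52_P188851 miss 0 in 3 comparisons, and those of the other 6 probes cross 0 in all 5.

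The difference between the ages was tested as an interaction over all 16 arrays. The SOD1G93A change of *Nefh* A_52_P188851 was 0.15 at 40 days and −0.15 at 80 days, and these differed by −0.30 (interval −0.52 to −0.07, limma adjusted p = 0.647). An exact permutation test over the 4900 relabelings within ages gave p = 0.0118. Its null is no genotype effect at either age, and it does not use the slide. Within slides the difference was 0.00 and −0.05 on slides 1 and 2 and −0.54 and −0.60 on slides 3 and 4. These slides hold the 3 arrays with bright backgrounds, and without those arrays the difference was −0.21 and did not pass. It was 1 call among 7 member probes, where 6.72% of all probes passed, and 0 of 21953 passed after adjustment against 1475 before it. The other 6 probes had interaction p-values of 0.283 to 0.894, and by the brightest probe 0 of 5 genes passed.

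Age was compared within each genotype, and these comparisons share arrays with those above. In wild-type cord 0 of 7 probes passed from 40 to 80 days, where 15.4% of all probes tested passed and 7.73% had groups that did not overlap. The member changes lay between −0.061 and 0.055, with p-values of 0.483 and above. After adjustment limma called 349 probes of the whole array in this comparison and none of these 7.

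In SOD1G93A cord 1 of 7 probes passed from 40 to 80 days, where 17.2% of all probes tested passed. *Nefh* A_52_P188851 fell by 0.25 on the log2 scale (interval −0.40 to −0.09, limma adjusted p = 0.117), from 4.33 ± 0.042 to 4.09 ± 0.14 (SD, n = 4). In Cy3 alone the change was −0.25 and in Cy5 alone it was −0.014. On the wild-type arrays this probe changed with age by −0.16 in Cy3 and −0.22 in Cy5. In SOD1G93A cord the exact permutation p of the ratio was 0.0286, the smallest that 4 against 4 arrays allow. It was lower on 4 of 4 slides, by −0.074, −0.13, −0.42 and −0.36 on slides 1 to 4, and its 2 groups did not overlap, as held for 12.6% of all probes. The brightest *Nefh* probe differed by −0.040 in the same comparison, and the other probes lay between −0.15 and 0.048 with p-values of 0.201 and above. After adjustment 249 probes of the array were called, none of them for these genes.

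**Figure D3:**
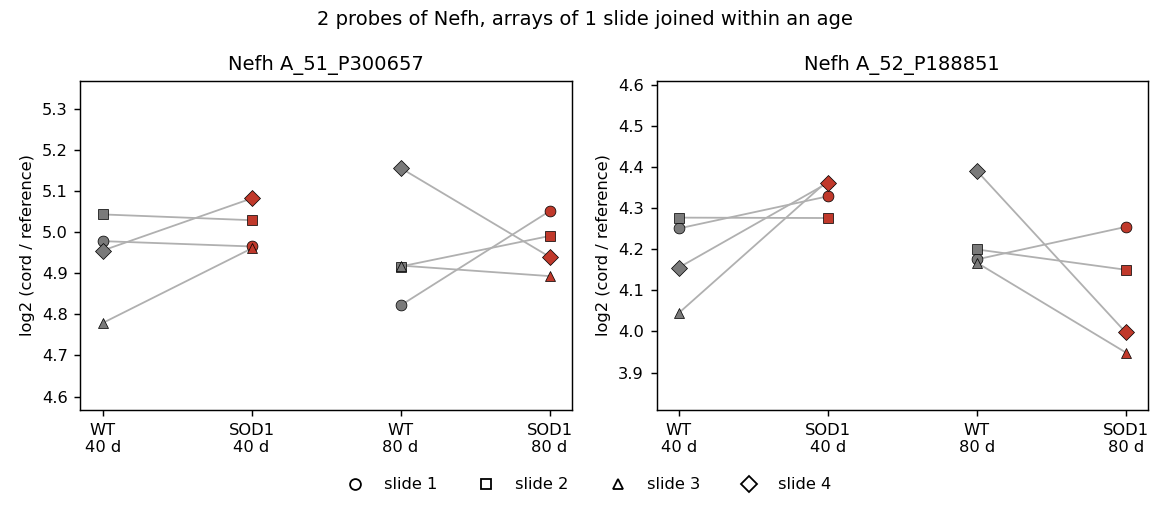
Log2 ratio of cord over reference for both *Nefh* probes by group, with a point for each array and lines that join the arrays of a slide. On A_52_P188851 the SOD1G93A arrays at 80 days (3.95 to 4.25) lie below those at 40 days (4.28 to 4.37), whereas on A_51_P300657 the same arrays overlap (4.89 to 5.05 and 4.96 to 5.08).

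For *Nefm* the ratio and the single channels gave different pictures at 80 days. In Cy3 alone the normalised log2 signals were 12.76, 12.74, 12.19 and 12.64 in wild-type cord and 12.87, 12.89, 12.75 and 12.88 in SOD1G93A cord, a difference of 0.27 (interval 0.00 to 0.53, limma p = 0.0470, exact permutation p = 0.0571). The Cy5 signals of the same spots, which come from the common reference RNA, were 11.10, 10.91, 10.50 and 10.73 on the wild-type arrays and 11.15, 11.11, 11.12 and 11.32 on the SOD1G93A arrays, a difference of 0.37 (interval 0.12 to 0.62, limma p = 0.00823, exact permutation p = 0.0286). The reference signal of this probe thus moved with the group by as much as the cord signal did, and their ratio differed by −0.052. Neither channel passed after adjustment (limma adjusted p = 0.944 in Cy3 and 0.9999 in Cy5). Of 21603 probes tested, 1127 passed unadjusted in Cy3 and 195 in Cy5. Between 40 and 80 days in wild-type mice the Cy3 signal of *Nefm* fell by 0.33 (exact permutation p = 0.143) and its Cy5 signal fell by 0.42 (exact permutation p = 0.0571). Both were past an unadjusted limma p of 0.05 and neither passed after adjustment, while the ratio changed by 0.043. The values that the authors deposited after their own normalisation follow the Cy3 channel, and there *Nefm* read 12.6, 12.6, 12.2 and 12.6 in wild-type and 12.8, 12.8, 12.7 and 13.1 in SOD1G93A cord at 80 days, a difference of 0.38 that passed the same threshold.

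**Figure D4:**
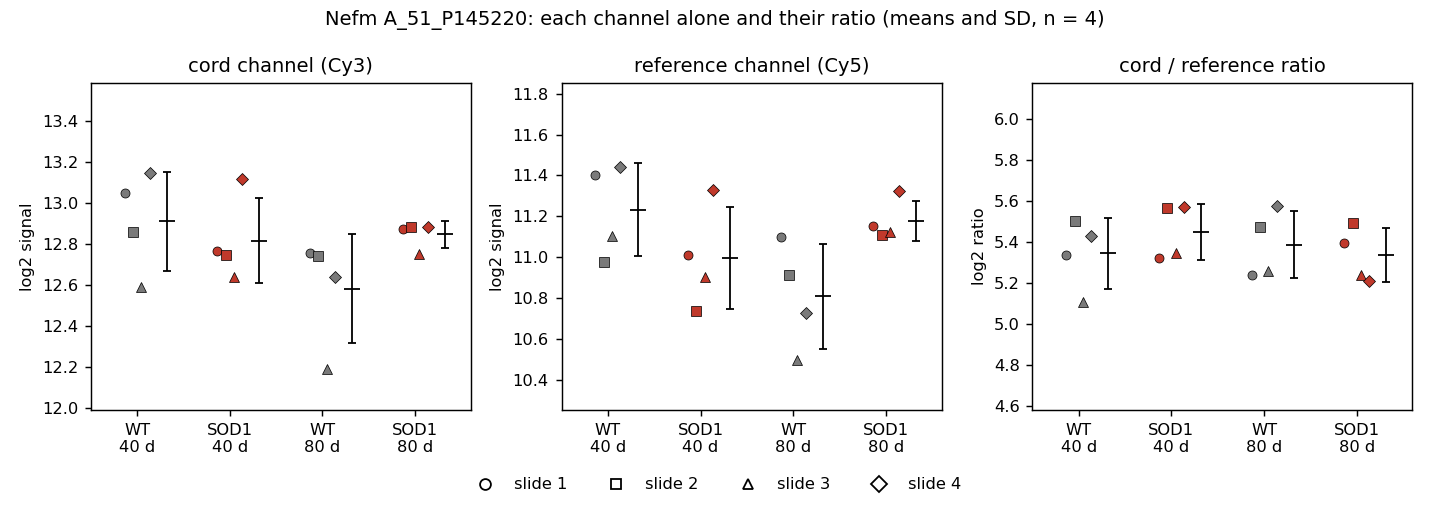
Normalised log2 signal of the *Nefm* probe A_51_P145220 in Cy3 (spinal cord) and Cy5 (common reference), and the log2 ratio of both, with a point for each array by group. At 80 days both channels were higher on the SOD1G93A arrays, by 0.27 and 0.37, and the ratio differed by −0.052.

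By their brightest probes, the 3 neurofilament subunits varied together over the 16 arrays. By Pearson's r of the log2 ratios, *Nefl* and *Nefm* had r = 0.89 (Spearman's rho = 0.90), *Nefl* and *Nefh* r = 0.84 (rho = 0.88), and *Nefm* and *Nefh* r = 0.84 (rho = 0.82). Permutation p-values for r, adjusted over the 12 pairs of probes examined, were 0.00012, 0.00024 and 0.00036 (unadjusted 1e-05, the smallest that 100000 permutations can give, 4e-05 and 9e-05), and those for rho were 6e-05, 6e-05 and 0.0012. Without the 2 arrays farthest from the median the values of r were 0.89, 0.84 and 0.74, and with group and slide means removed they were 0.75, 0.77 and 0.86. A slide holds 4 arrays, too few for a value within slides.

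In the ratios, *Ina* and *Prph* stood outside this group. Their 7 pairs with each other and with the 3 subunits had r between −0.080 and 0.41, with adjusted permutation p-values of 0.228 to 0.795. Probes of the same gene gave r = 0.71 for *Nefl* (rho = 0.61, adjusted permutation p = 0.00576 and 0.0329) and r = 0.68 for *Nefh* (rho = 0.70, adjusted permutation p = 0.00876 and 0.0103). Among 21952 other probes, *Nefm* ranked 1 by r with *Nefl* A_51_P339934, *Nefh* A_51_P300657 ranked 10 with it, and the median r was 0.00. The second probes followed the other subunits less closely. *Nefl* A_51_P168646 had r = 0.59 with *Nefm* (rank 225) and 0.52 with *Nefh* A_51_P300657 (rank 365). *Nefh* A_52_P188851 had r = 0.76 with *Nefl* A_51_P339934 (rank 32) and 0.67 with *Nefm* (rank 106).

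Each of these 3 relations was weaker in the single channels. In Cy3 alone r was 0.31 for *Nefl* and *Nefm*, 0.33 for *Nefl* and *Nefh* and −0.08 for *Nefm* and *Nefh*, and in Cy5 alone it was 0.02, 0.75 and −0.01. Pairs with *Ina* or *Prph* ran from −0.61 (*Ina* and *Prph*) to 0.62 (*Nefh* and *Ina*) in Cy3. In Cy5 they ran from −0.49 (*Ina* and *Prph*) to 0.52 (*Nefm* and *Prph*). The 3 subunits thus did not stand apart from *Ina* and *Prph* in Cy3 alone. All points share their array's normalisation and the reference channel, whose part in the ratio relation was not tested.

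**Figure D5:**
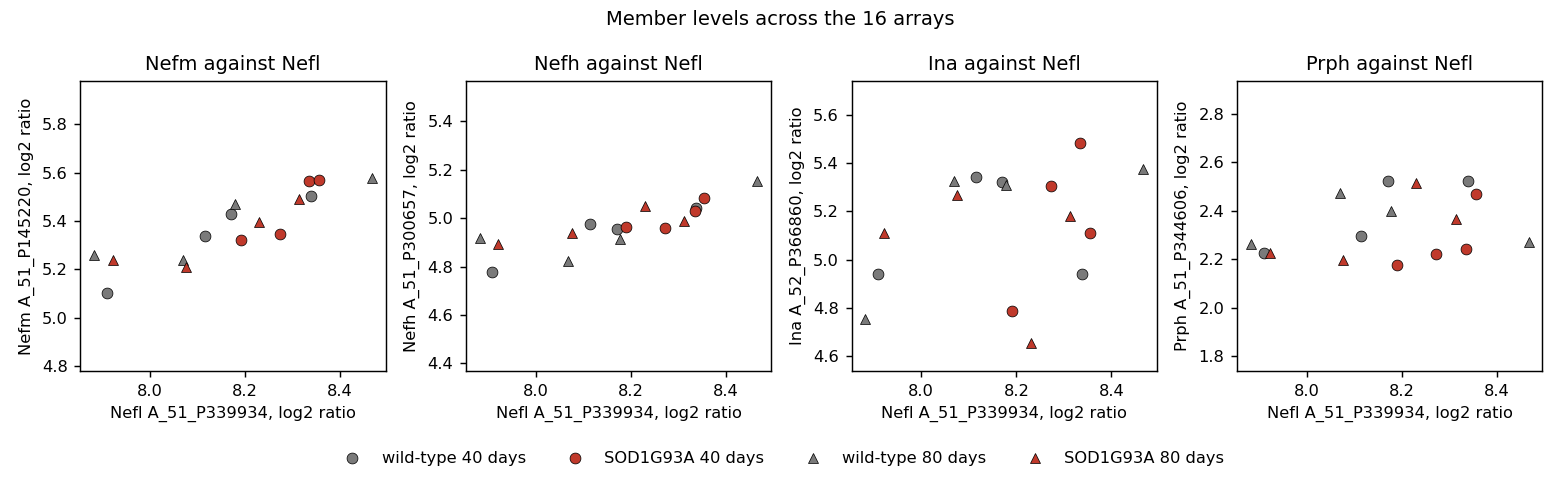
Log2 ratios of *Nefm*, *Nefh*, *Ina* and *Prph* against *Nefl* over the 16 arrays, by their brightest probes. Each array is 1 point, coloured by genotype and shaped by age. *Nefm* (r = 0.89) and *Nefh* (r = 0.84) lie along a line with *Nefl*, and *Ina* and *Prph* scatter.

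The genes outside the family whose ratios followed the mean of the 5 members most closely, among 21760 probes over 16 arrays, were *Olig1* (r = 0.86), a transcription factor of the oligodendrocyte lineage, *Sv2c* (r = 0.86) and *Sv2b* (r = 0.85), synaptic vesicle glycoproteins, *St8sia5* (r = 0.86), a sialyltransferase that makes gangliosides, and AI593442 (r = 0.86). The members' mean profile had a median r of 0.40 with 6 oligodendrocyte markers (range 0.0083 to 0.85), of 0.34 with 11 pan-neuronal markers (range −0.45 to 0.54) and of −0.08 with 4 motor neuron markers (range −0.34 to 0.27). Over all probes searched the median was −0.01 and the range −0.82 to 0.86. The mean was taken of centred but unscaled ratios, so *Ina* (SD 0.25 over the 16 arrays) weighed more in it than *Nefh* A_51_P300657 (SD 0.095). The values of r describe the 16 arrays, which share slides and reference, and they carry no test.

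Genes that build, modify or carry neurofilaments were examined as 5 lists with 38 genes, all of them tested by limma, and higher or lower is written here of those past an unadjusted p under 0.05. Other intermediate filaments (8 genes) had 1 member higher in SOD1G93A cord at 40 days, *Gfap* of astrocytes, by 0.24 (adjusted p = 0.997). Kinases, their activators, a phosphatase and an isomerase that act on neurofilament tails (15 genes) had 1 higher at 40 days, *Gsk3b*, by 0.26 (adjusted p = 0.997). Axonal transport motors (7 genes) had none at 40 days and 1 higher at 80 days, the dynein heavy chain *Dync1h1*, by 0.20 (adjusted p = 0.706). The cross-linking plakins (3 genes) and the genes for filament turnover and *Nefl* mRNA binding (5 genes, with *Tardbp* and *Arhgef28*) had none at either age. That made 2 of 38 genes at 40 days and 1 of 38 at 80 days, where 3.91% and 6.47% of all genes passed, and none passed after adjustment.

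With age, 2 of the 38 genes passed in wild-type cord, the plakin *Macf1* higher by 0.18 (adjusted p = 0.138) and the filament protein gene *Synm* lower by −0.30 (adjusted p = 0.268). In SOD1G93A cord 5 of 38 passed: *Plec* (0.27), *Dctn1* (0.36) and *Myo5a* (0.14) were higher, and *Lmnb1* (−0.34) and the kinase gene *Rock1* (−0.25) were lower. Over all genes 15.7% and 17.7% passed in these comparisons. Between the ages the SOD1G93A change differed for *Gfap* (−0.41), *Rock1* (−0.28) and *Myo5a* (0.22) at an unadjusted p under 0.05, with adjusted p-values of 0.716 to 0.741. These were 3 of 38 genes, 1 higher and 2 lower, where 5.81% of all genes passed.

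Markers of the cells that could carry these transcripts were read on the same arrays. All 11 pan-neuronal markers were above background, and their mean log2 ratio per array ran from 4.11 to 4.25 in wild-type and 4.15 to 4.29 in SOD1G93A cord at 40 days and from 4.18 to 4.38 and 4.17 to 4.31 at 80 days. These array means overlapped at both ages. At 40 days 1 of the 11 passed, the dendritic protein gene *Map2*, higher in SOD1G93A cord by 0.15 (adjusted p = 0.997), where 3.91% of all genes passed. At 80 days 2 of 11 passed, *Map2* and the synaptic vesicle gene *Syt1*, lower by −0.15 and −0.33 (adjusted p = 0.718 for both), where 6.47% of all genes passed. The same 2 of 11 differed between the ages, by −0.31 and −0.43 (adjusted p = 0.537 and 0.723), where 5.81% of all genes did. Of the 6 motor neuron markers 4 were above background on at least 8 arrays, while the defining gene *Chat* and also *Ret* were not. None of the 4 that could be tested passed between the genotypes at either age. For the difference between the ages 1 of the 4 was higher, where 5.81% of all genes passed, and 0 passed after adjustment. Of 8 sensory neuron markers 3 were above background, and those below it or without a probe included *Scn10a*, *Trpv1*, *Mrgprd* and *Avil*, while *Calca* was lower at 40 days by −0.46 (adjusted p = 0.997).

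Of the 6 oligodendrocyte markers 2 were higher in SOD1G93A cord at each age and none passed after adjustment, where 3.91% and 6.47% of all genes passed unadjusted. They included *Mbp* at 40 days (0.15, adjusted p = 0.997) and *Cnp* and *Mog* at 80 days (0.24 and 0.27, adjusted p = 0.707 and 0.706). The mean of the 6 markers per array ran from 5.48 to 5.85 in wild-type and 5.68 to 6.01 in SOD1G93A cord at 40 days and from 5.31 to 5.65 and 5.49 to 5.63 at 80 days, so the groups overlapped at both ages. Of the 4 Schwann cell markers 3 were above background (*Pmp2* was not), with array means of −0.88 to 2.57 in wild-type and −0.81 to 1.17 in SOD1G93A cord at 40 days and 0.28 to 1.54 and 0.01 to 1.55 at 80 days. The 5 skeletal muscle markers ran from −2.88 to 0.051 over all arrays. The part of neurons, glia, nerve root or muscle in the values of the neuronal intermediate filament genes was not tested.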

How the data were processed

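Total RNA of lumbar spinal cord (Cy3) and of a pooled reference (Cy5) was hybridised to 4x44K whole mouse genome arrays, without dye swaps, and the deposited spot signals are linear intensity values from Agilent Feature Extraction 9.5.3.1, per the file headers, not yet normalised. A second deposited table holds log2 values that the authors normalised with limma within and between arrays. Its column medians were 6.40 at 40 days and 6.09 at 80 days and it followed log2 Cy3 (r = 0.88 to 0.91 within arrays), so it was used within an age only, and its centring is not given in the sources used here.

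From the spot files, local backgrounds more than 20 units above their spot were set to the array median. Median signals were then corrected by normexp (offset 50), normalised by loess inside each array and by the Aquantile method across arrays in limma 3.58.1 under R 4.3.3, and spots of a probe were averaged without outlier spots. Probes well above background in Cy3 on 3 of 4 arrays of a group, and measured on 2 or more of each, were fitted by lmFit and eBayes over the groups compared, and for age and the difference between ages over all 16 arrays. The call was an unadjusted p under 0.05, as in the study's methods, with Benjamini-Hochberg adjusted values beside it and two-sided exact permutation tests over arrays. The scripts were tested on simulated data. Slide numbers equal replicate numbers and do not mark shared animals. Deviations of same-numbered arrays correlated by −0.06 to 0.21, so the block is an alternative. Precision is limited by the number of arrays, and p-values cover the spread between these arrays.

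Probe names were updated through RefSeq accessions where these matched (22951 probes), by symbol (6659) or synonym (3109), and 8455 kept the file's name. Prph1 matched *Prph* by accession. Every probe of the 5 genes is described, the brightest probe in Cy3 stands for a gene in counts, and the 5 most similar genes by r are named. Of each list, up to 4 genes with the largest change among p under 0.05 are named. The members and lists were chosen with earlier results of these data known, and some marker genes are not reported here. Alternatives covered background, signal, loess, single channel, filters, arrays fitted, weights, trend, slide block and each array left out.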

Additional observations from a re-analysis of the deposited data

Results flagged for a closer look

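The wild-type arrays at 80 days held 2 values that stood apart from the other 3 arrays of their group by Dixon's test, among 28 sets of 4 arrays tested, of which chance marks about 1 in 20. Replicate 4 read 4.39 on *Nefh* A_52_P188851, a gap of 0.856 of the group's range, while the other arrays read 4.17 to 4.20. Replicate 3 read 4.76 on *Ina*, a gap of 0.894 of the range, while the other arrays read 5.31 to 5.37. Its raw Cy3 signal was 543 units over a Cy5 signal of 121 units. The SOD1G93A change of *Nefh* A_52_P188851 differed between the ages by −0.30 on the log2 scale (exact permutation p = 0.0118, limma adjusted p = 0.647), whereas the other *Nefh* probe gave −0.055. The part of sequence, position or slide in the disagreement between these probes was not tested.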

How the results depend on the processing

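Over the settings other than leaving out an array, 448 of the values recomputed for the 5 comparisons kept their direction and their side of the threshold of 0.05, 14 lost a call, 1 gained one and 55 changed sign. Leaving out each array gave 293, 5, 2 and 36 in turn. The call of *Nefh* A_52_P188851 from 40 to 80 days in SOD1G93A cord was lost under 1 of 15 other settings (bright backgrounds not reset, −0.18) and in 0 of 8 left-out arrays (−0.30 to −0.20). Its difference between ages was lost under 4 of 14, at −0.29 with backgrounds not reset, −0.18 without loess, −0.088 in Cy3 alone and −0.21 without the bright arrays. Its call at 40 days was lost under 9 of 16 settings. The cause was not tested in any of these. Of 5 genes, 1 passed in place of 0 in Cy3 alone at 80 days and with age in wild-type cord, and in the authors' values at 80 days (*Nefm* each time), and at 40 days without wild-type replicate 2 (*Nefl*, 0 to 1 over the arrays left out) or without the bright arrays (*Prph*). Over all probes, 1127 of 21603 passed in Cy3 at 80 days and 2497 of 21526 in Cy3 with age in wild-type cord. In the authors' values at 80 days 1136 of 21603 did. At 40 days 735 probes passed without wild-type replicate 2, and 1155 of 20627 without the bright arrays.

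With the replicate number, which is the slide, as a block, *Nefh* A_52_P188851 lost its call at 40 days (0.15, limma adjusted p = 0.979) and kept it for the difference between ages (−0.30) and with age in SOD1G93A cord (−0.25). By the brightest probe 0 of 5 genes passed in each comparison and no other call changed. The block called 973 and 1700 probes at 40 and 80 days, 1505 for the difference and 3419 and 3641 with age. Of 16 arrays, 4 correlated best with an array of their own number. That count is over all probes together, so it does not show whether single probes shared a slide effect.

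Sign changes were of values that did not pass, apart from the 2 *Nefm* values called in Cy3 and the 1 in the authors' values. At 40 days *Ina* was −0.098 with backgrounds not reset, −0.0029 with mean signals, −0.0084 with processed signals, −0.033 without loess and −0.0088 without the bright arrays, which also gave −0.013 for *Nefm* and −0.0073 for *Nefh* A_51_P300657. In Cy3 alone *Nefm*, *Nefh* A_51_P300657 and *Nefl* A_51_P339934 were −0.095, −0.022 and −0.13 at 40 days, and in the authors' values −0.24, −0.15 and −0.13, with −0.12 for *Nefl* A_51_P168646. At 80 days *Nefm*, *Nefl* A_51_P339934 and *Ina* were 0.27, 0.18 and 0.033 in Cy3 and 0.38, 0.19 and 0.042 in the authors' values. *Nefh* A_51_P300657 was −0.0020 with backgrounds not reset, *Nefl* A_51_P339934 0.014 and *Prph* 0.012 without loess, and *Prph* 0.011 with array weights.

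For the difference between ages, *Nefl* A_51_P168646 was 0.0088 with backgrounds not reset, 0.010 without subtraction, 0.095 without loess, 0.030 in Cy3 and 0.068 without the bright arrays. *Nefh* A_51_P300657 was 0.043 without loess, 0.062 in Cy3 and 0.032 without the bright arrays, *Nefm* 0.36 in Cy3 and 0.0028 without the bright arrays, *Nefl* A_51_P339934 0.31 in Cy3 and *Prph* −0.11 with processed signals.

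With age in wild-type cord, *Nefl* A_51_P168646 and *Prph* were 0.080 and 0.056 with backgrounds not reset, *Nefl* A_51_P339934 and *Prph* −0.022 and 0.0088 with processed signals, *Nefh* A_51_P300657 and *Nefl* A_51_P339934 −0.041 and −0.051 without loess, and *Nefl* A_51_P168646 0.027 with array weights. In Cy3 alone *Nefm*, *Nefh* A_51_P300657, *Nefl* A_51_P339934, *Nefh* A_52_P188851 and *Ina* were −0.33, −0.17, −0.068, −0.16 and −0.042. With age in SOD1G93A cord, *Nefl* A_51_P168646, *Nefh* A_51_P300657 and *Ina* were 0.088, 0.0033 and 0.21 with backgrounds not reset, *Prph* −0.10 with processed signals, *Nefh* A_51_P300657 0.0027 without loess, and *Nefm* and *Nefl* A_51_P339934 0.032 and 0.24 in Cy3.

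Leaving out each array, ranges that crossed 0 were −0.067 to 0.16 for *Ina* at 40 days, and at 80 days −0.10 to 0.011 for *Nefm*, −0.028 to 0.083 for *Nefh* A_51_P300657, −0.10 to 0.092 for *Nefl* A_51_P339934 and −0.089 to 0.017 for *Prph*. For the difference between ages they were −0.092 to 0.040 for *Nefl* A_51_P168646 and −0.099 to 0.013 for *Nefh* A_51_P300657. With age in wild-type cord they were −0.037 to 0.097 for *Nefm*, −0.12 to 0.015 and −0.090 to 0.10 for *Nefl* A_51_P168646 and A_51_P339934, −0.053 to 0.058 and −0.0013 to 0.083 for *Nefh* A_51_P300657 and A_52_P188851, −0.095 to 0.0045 for *Prph* and −0.010 to 0.20 for *Ina*. In SOD1G93A cord they were −0.015 to 0.11 for *Prph* and −0.25 to 0.014 for *Ina*.

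Over the whole array, calls at 40 days were 963 as reported, 249 with backgrounds not reset, 1615 with processed signals, 554 in Cy3, 538 in the authors' values and 1900 without the filter, and 712 to 1905 over the arrays left out, the highest without wild-type replicate 4. At 80 days 1482 became 2420 without the filter and 2441 with array weights, and 974 to 1839 over the arrays left out, the lowest without SOD1G93A replicate 3. The 1475 of the difference between ages became 792 with backgrounds not reset and 2473 without the filter, and the 3313 of age in wild-type cord 5025 without the filter. The probe of *Nefm* at background and the width of the intervals limit what these arrays can show.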
